A study of Rattus norvegicus with 2 samples.

Results

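miR-199a and miR-214 are microRNAs (miRNAs) of mesenchymal cells, and their level was compared here between squamous cell carcinoma of the rat tongue and normal rat tongue. The members are the features named rno-miR-199a-5p, rno-miR-199a-3p and rno-miR-214 among the probes that are not controls: 3 of the 350 rat miRNAs on the array, with 6 of its 938 probes and 60 of its 7000 spots. The study gave male Sprague-Dawley rats aged 6 to 7 weeks the carcinogen 4-nitroquinoline 1-oxide (4NQO), dissolved at 0.02 g/l, and gave control rats distilled water alone, up to the end of week 36. Each arm had 20 rats. RNA was extracted from 7 tumours of the 4NQO arm and from 7 normal tongues of the water arm. The data analysed are 2 one-colour Agilent arrays, of which 1 has the label tumour and 1 the label normal, and the sources used here do not say if either held RNA of 1 animal or of several. With 1 array per group there is no replicate check and no test between groups, and each error below comes from the spots of an array or from the array software.

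A miRNA gene gives a hairpin RNA, from which the enzymes Drosha and Dicer cut a short duplex. Its 2 arms, named 5p and 3p by the end of the hairpin they come from, can each be loaded into an Argonaute protein and then repress mRNAs that pair with the seed, bases 2 to 8 of the miRNA. In mouse, the genes of miR-199a-2 and miR-214 lie in 1 long noncoding transcript, Dnm3os, which runs opposite to an intron of Dnm3 and is activated in mesenchyme by the transcription factor Twist1. Both miRNAs are known from fibroblasts and other connective tissue cells, and miR-214 also from differentiating skeletal muscle in mouse, where it represses the histone methyltransferase Ezh2.

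The mature sequences are shown because the seeds of the 3 members differ, although they come from neighbouring genes. The array's names were matched to RefSeq sequences of the rat assembly GRCr8 by the probes themselves, whose reverse complement had to lie inside the mature miRNA. All 3 members matched, and the feature named miR-214 is the 3p arm of its hairpin. Capitals mark the seed.
miR-199a-5p: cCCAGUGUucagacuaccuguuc
miR-199a-3p: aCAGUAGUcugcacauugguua
miR-214: aCAGCAGGcacagacaggcag
In GRCr8 these lie on the plus strand at chr13:77116255-77116277, chr13:77116294-77116315 and chr13:77121713-77121733, the first 2 in the gene Mir199a2 and the third in Mir214. Both genes lie within the span of Dnm3, which encodes a dynamin and is annotated on the minus strand. The array's own grid names build rn4, so these positions come from the sequence match and not from the array. Of the other mature rat miRNAs that RefSeq lists, 0 share any of these seeds, and 304 of the 350 miRNAs on the array could be matched to that table. Mir3120 is annotated in the same region, and no feature of the array carries its name.

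The hairpin of Mir214, at chr13:77121645-77121752 in GRCr8 on the plus strand, shows where the measured arm lies. Of its 108 bases the measured miRNA takes bases 69 to 89, in capitals.
miR-214 hairpin: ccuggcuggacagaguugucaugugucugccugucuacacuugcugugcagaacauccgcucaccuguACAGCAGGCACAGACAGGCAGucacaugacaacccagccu
The other arm of this hairpin was not analysed here.

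Each member has 2 probes that pair with the 3′ end of the miRNA and differ in length by 1 base. They are shown because brightness differed with length, and capitals mark the base that the longer probe has and the shorter has not.
miR-199a-5p longer: gaacaggtagtctgaacaC
miR-199a-5p shorter: gaacaggtagtctgaaca
miR-199a-3p longer: taaccaatgtgcagactacT
miR-199a-3p shorter: taaccaatgtgcagactac
miR-214 longer: ctgcctgtctgtgcC
miR-214 shorter: ctgcctgtctgtgc
For miR-199a-5p the probes cover bases 5 to 23 and 6 to 23 of the miRNA, for miR-199a-3p bases 3 to 22 and 4 to 22, and for miR-214 bases 7 to 21 and 8 to 21. No probe covers a whole seed. The probes of miR-214 are the shortest, at 15 and 14 bases, and the richest in G and C, at 66.7% and 64.3%, against 40.0% to 47.4% for those of miR-199a. Against all probes of other miRNAs on the array, the longer probe of each member matched at most 11 of 19 bases for miR-199a-5p, 11 of 20 for miR-199a-3p and 10 of 15 for miR-214 in an ungapped alignment. The longest run of bases shared with any of them was 8, 8 and 7 bases in that order.

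Some markers ran against the labels, and every direction given here is that of the labels. miR-21 and miR-31, both commonly raised in oral carcinoma, had 9.60-fold and 15.2-fold less scaled signal on the array labelled tumour than on the array labelled normal. Skeletal muscle miRNAs made up 28.2% of all miRNA signal in the array labelled tumour, against 4.46% in the array labelled normal. With 1 array per group, an exchange of the labels cannot be told apart from a difference between the tissues. An exchange would turn the sign of every ratio: miR-199a-5p would be at 1.56 and miR-214 at 1.44 on the log2 scale, at least 2-fold higher and at ranks 7 and 8 from the highest, and miR-199a-3p would be at 0.60. The size of each ratio and of each difference between members would stay.

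Before any scaling between arrays, miR-199a-5p was dimmer on the array labelled tumour. Its 19-base probe had a lowest, median and highest spot of 69.7, 72.1 and 82.2 intensity units there, against 104, 115 and 124 on the array labelled normal. Averages were 74.1 ± 4.72 (SD, 10 spots) for the first and 115 ± 6.18 (SD, 9 spots) for the second array. The spot ranges did not overlap. Its 18-base probe was near background, averaging 8.41 ± 3.05 in the tumour array's 10 spots and 13.1 ± 3.13 in the normal array's 10 spots (SD). The dimmest detected probes had 18.3 and 18.2, and the negative control spots averaged 1.21 and 2.64. Detection required the software's flag for well above background on over 50% of a probe's spots, and on the 18-base probe 0 of 10 and 1 of 10 spots were. Thus the ratio of miR-199a-5p rests on 1 probe. The undetected probe gave nearly the same unscaled log2 ratio, -0.64 (spot SE 0.20), against -0.63 (spot SE 0.04) for the detected one, but its spot ranges overlapped and its ratio was -0.54 once the mean of the negative controls was taken off.

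The other arm of miR-199a went the opposite way before scaling. miR-199a-3p, whose known targets include the kinase mTOR, was read by a 20-base probe with a lowest, median and highest spot of 372, 411 and 430 on the array labelled tumour, against 291, 323 and 348 on the array labelled normal. The 19-base probe had 172, 181 and 187 there, against 140.2, 145 and 153. Among spots not marked as outliers each probe was brighter on the array labelled tumour with no overlap. A marked spot of the 19-base probe had 138 there and another 137 on the array labelled normal, both below the spots used. The unscaled log2 ratios of the 20-base and the 19-base probe were 0.33 (spot SE 0.03) and 0.31 (spot SE 0.02).

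miR-214 followed miR-199a-5p. On its 15-base probe the lowest, median and highest spot were 105, 117 and 128 on the array labelled tumour, against 142, 162 and 168 on the array labelled normal. The 14-base probe had 49.8, 55.0 and 61.2, against 78.3, 83.9 and 90.5. No spot ranges overlapped, and the unscaled log2 ratios were -0.44 and -0.60 (spot SE 0.04 each). These 2 probes differed by 0.16, while over the 55 miRNAs with more than 1 measured probe the median gap between probes was 0.05 and the widest, in miR-98, was 0.33.

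Across the array, dimmer probes on the array labelled tumour were the minority. Of the 140 probes detected on both arrays, 10.0% had a lower spot range there with no overlap and 62.9% a higher one. Among the 5 detected member probes the counts were 3 lower, those of miR-199a-5p and miR-214, and 2 higher, those of miR-199a-3p. Together 72.9% of the probes had no overlap. Of the members' 60 spots, 2 on the tumour array and 4 on the normal array were marked as outliers by the software and left out, and 0 were saturated.

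**Figure D1:**
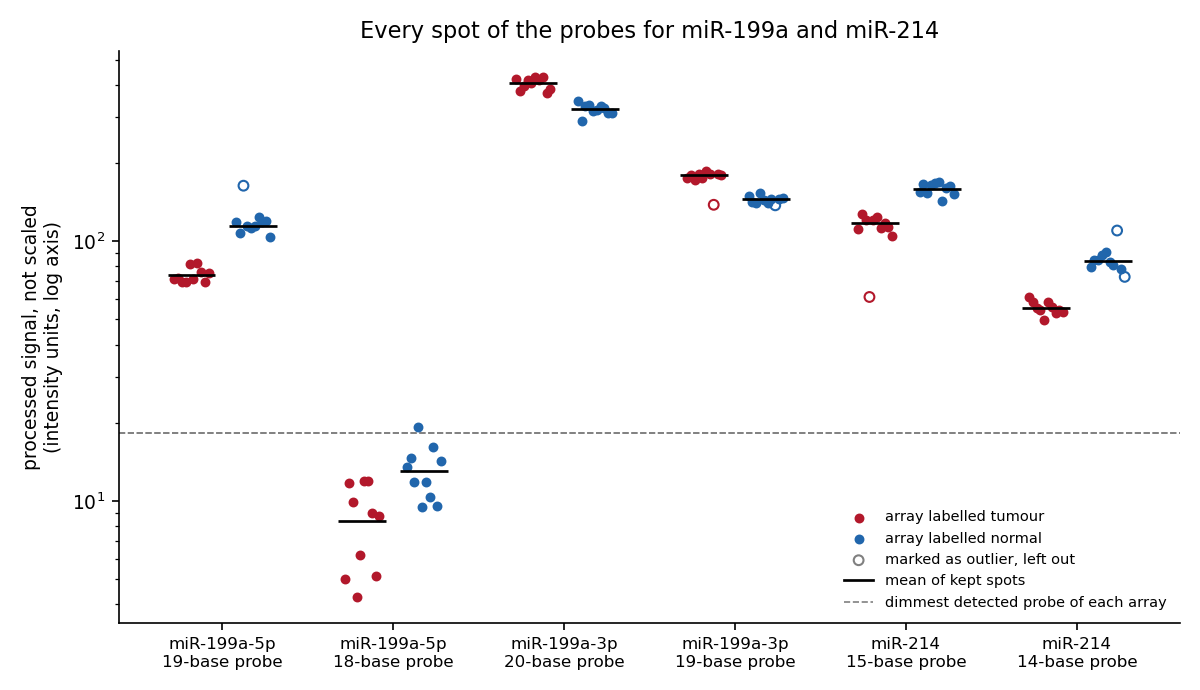
Processed signal of every spot, in intensity units on a log axis and without scaling, for the 6 probes of the 3 miRNAs, with the array labelled tumour left and the array labelled normal right in each pair. Filled points are spots used, open points are spots marked as outliers, bars are means, and the dashed grey lines, which lie on each other, are the dimmest detected probe of each array (18.3 and 18.2). Among the spots used, those of miR-214 and of the 19-base probe of miR-199a-5p lie lower on the array labelled tumour and those of miR-199a-3p higher, while those of the 18-base probe of miR-199a-5p overlap.

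Probes of 1 miRNA differed in brightness by more than the unscaled arrays did for either of them. The longer probe of miR-199a-5p was 8.81-fold brighter than the shorter on the array labelled tumour and 8.78-fold brighter on the array labelled normal. For miR-199a-3p these folds were 2.26 and 2.22, and for miR-214 they were 2.12 and 1.90. Signals of different probes are therefore not set against each other, and the comparison that follows is between arrays for the same probe.

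The arrays differed in overall brightness, so each was divided by the 75th percentile of the signals of those 140 probes, which was 525.6 and 277.5 intensity units. The percentiles differed 1.89-fold, which lowers every log2 ratio by 0.92. In these units, where the 75th percentile of an array is 1, rno-miR-199a-5p stood at 0.141 on the array labelled tumour, against 0.414 on the array labelled normal. It was 2.94-fold lower (log2 ratio -1.56, spot SE 0.04). rno-miR-214 was at 0.153 and 0.417, or 2.72-fold lower (-1.44, spot SE 0.03). rno-miR-199a-3p was at 0.513 and 0.780, or 1.52-fold lower (-0.60, spot SE 0.02). Calls are made by size alone, at 2-fold or more, with no test. By that rule 2 of the 3 members were lower on the array labelled tumour, against 22.4% of the 85 miRNAs measured on both arrays (19 miRNAs). Higher by 2-fold or more were 12.9% (11 miRNAs), and the median log2 ratio of the 85 was -0.46.

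In rank order from the lowest ratio, miR-199a-5p was number 7 and miR-214 number 8 of the 85, next to each other, while miR-199a-3p was number 37. Relative to the median of all 85, a comparison that a common factor cannot change, miR-199a-5p lay at -1.09, miR-214 at -0.98 and miR-199a-3p at -0.14 on the log2 scale. Processing other than by a common factor moved these values, as given in the last section.

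**Figure D2:**
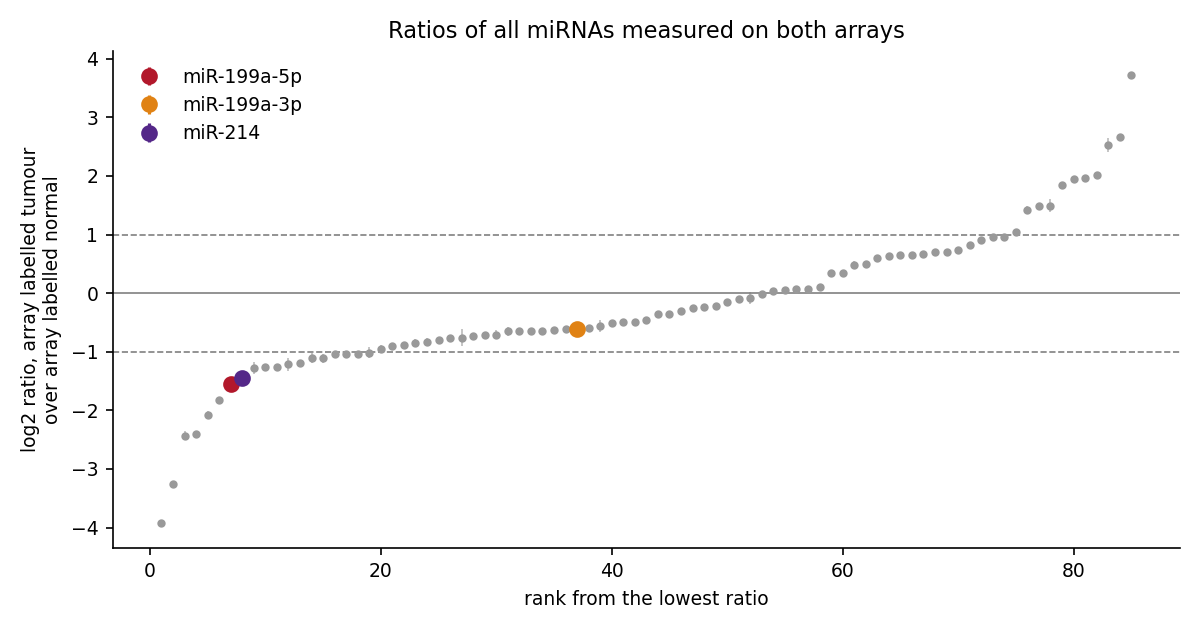
Log2 ratios, array labelled tumour over array labelled normal, of the 85 miRNAs measured on both arrays, ordered from the lowest, with spot SE as error bars and dashed lines at 2-fold. miR-199a-5p and miR-214 are at ranks 7 and 8 and miR-199a-3p is at rank 37.

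The direction of miR-199a-3p depended on the scaling. Without scaling its log2 ratio was 0.32, and scaled on the array's positive control features it was 0.21, both higher on the array labelled tumour. The other members stayed below 0 in these settings, but under 2-fold: -0.63 and -0.74 for miR-199a-5p, and -0.52 and -0.63 for miR-214. None of the members was 2-fold lower in either, where 5.88% and 7.06% of the 85 miRNAs were. Scaled on the 75th percentile of every probe, where 8.24% were 2-fold lower, miR-214 was at -0.96 and thus just under 2-fold, while miR-199a-5p was at -1.07. Over 16 alternatives miR-199a-5p ran from -1.70 to -0.63, miR-214 from -1.51 to -0.52 and miR-199a-3p from -0.63 to 0.32.

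**Figure D3:**
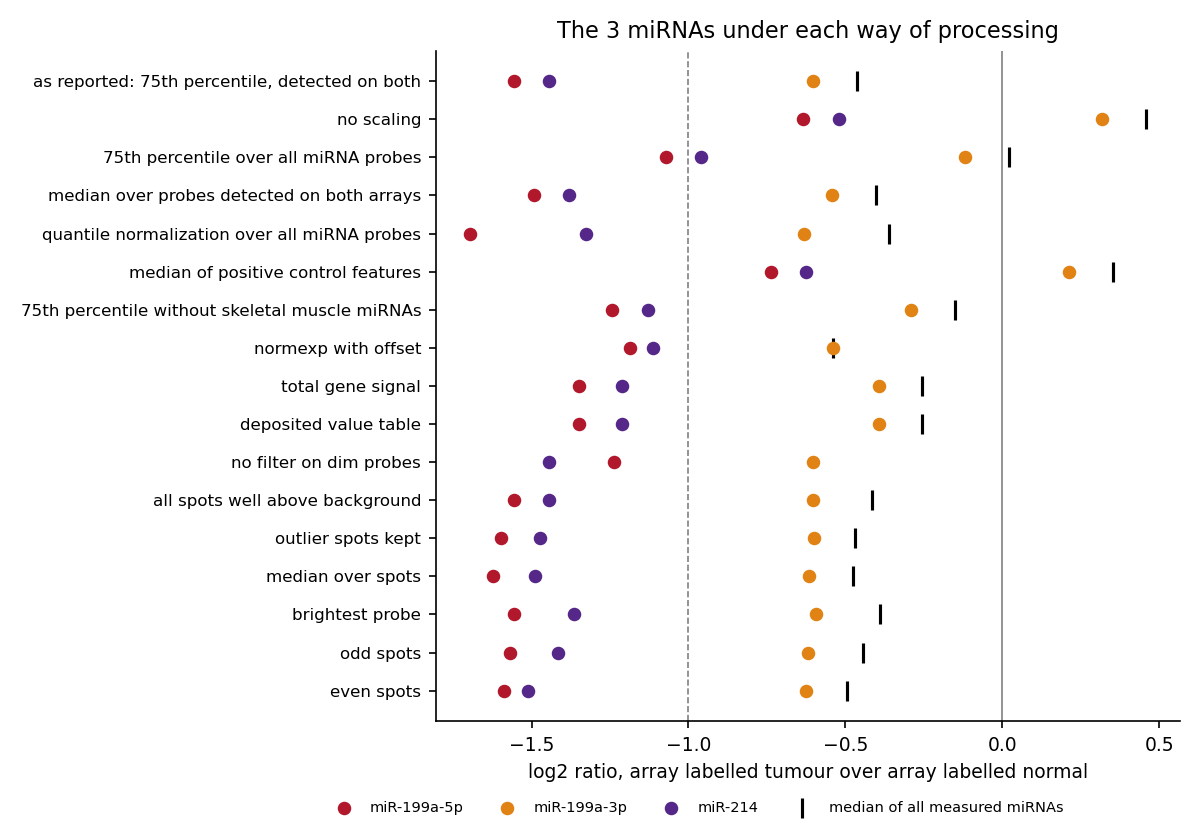
Log2 ratios, array labelled tumour over array labelled normal, of the 3 miRNAs as reported (top) and under 16 alternatives, with black ticks for the median of all measured miRNAs (not drawn without a filter, where most miRNAs sit at the floor) and a dashed line at 2-fold lower. Common-factor scalings move the 3 points together, and the gap between miR-199a-3p and the other members remains in every row.

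The difference between members does not depend on a common scaling factor. miR-199a-5p lay 0.95 below miR-199a-3p in log2 ratio (-0.95, spot SE 0.04), a relative change of 1.93-fold between the 2 arms of miR-199a. RefSeq places both arms in 1 rat gene, Mir199a2, and signal from genes that it does not list was not tested. miR-214 lay 0.84 below miR-199a-3p (-0.84, spot SE 0.03), a relative change of 1.79-fold. Between miR-214 and miR-199a-5p the difference was 0.11 (spot SE 0.05). Such gaps are common here: over all 3570 pairs of the 85 measured miRNAs the median absolute difference in log2 ratio was 1.096. Of those pairs 45.1% lay closer together than the 2 arms, 41.1% closer than miR-214 and miR-199a-3p, and 6.19% closer than miR-214 and miR-199a-5p. Over the 16 alternatives the difference between the arms ran from -1.06 to -0.63 and that between miR-214 and miR-199a-3p from -0.88 to -0.57, while that between miR-214 and miR-199a-5p ran from -0.21 to 0.37 and so had no settled sign.

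The array software's own totals per miRNA, which carry a wider error model than the spot spread, gave the same order of ratios. For miR-199a-5p the total gene signal was 54.7 ± 6.11 on the array labelled tumour, against 84.9 ± 8.34 on the array labelled normal. miR-199a-3p had 388 ± 29.6 and 310.3 ± 23.7, and miR-214 had 114 ± 9.32 and 161 ± 12.4. From these totals the difference between the arms was -0.96 with an error of 0.27, that between miR-214 and miR-199a-3p was -0.82 with an error of 0.22, and that between miR-214 and miR-199a-5p was 0.14 with an error of 0.27. The first 2 were larger than their error and the last was not. Summed over the 3 miRNAs the totals were nearly equal, 557.0 and 556.7, which was 1.20% of all miRNA signal in the tumour array and 2.20% in the normal array. These sums are unscaled, and miR-199a-3p is their largest part. Since brightness differs between probes, they do not measure the joint level of the members.

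Few other hairpins allow the same comparison of arms. Of 81 pairs of arms that the array's names give, 2 had both arms measured on both arrays, and the other was miR-140, a miRNA of cartilage and its progenitors. miR-140 had a log2 ratio of -0.73 (spot SE 0.05) and its other arm, miR-140*, one of -1.11 (spot SE 0.08), a difference of 0.38 against 0.95 in size for miR-199a. Both arms of miR-140 were dim and measured by 1 probe each. In brightness they were at ranks 73 and 77 of 85 on the array labelled tumour and 74 and 69 on the array labelled normal. In 34 further pairs 1 arm alone was measured on both arrays, so how often arms differ cannot be read from these data.

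Pairs of miRNAs from neighbouring genes give a scale for miR-199a and miR-214, a comparison chosen after the members' values were seen. Of the 85 measured miRNAs, 76 could be placed in GRCr8 by their probe sequences, and 31 other pairs came from different genes on the same strand within 10000 bases. Their log2 ratios differed by a median of 0.27 with a range of 0.0046 to 1.75. Of the 31 pairs, 23 differed more than miR-199a-5p and miR-214 did, and 4 differed more than miR-199a-3p and miR-214. These 4 were miR-133b with miR-206, miR-29b with miR-29c, miR-1 with miR-133a, and miR-23a with miR-27a. Some of these miRNAs come from more than 1 gene copy, and some pairs share a miRNA, so the pairs are not independent.

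The miRNAs whose ratio lay nearest to a member's, with likeness measured over 2 arrays as the absolute difference in log2 ratio, included markers of leukocytes and of epithelium. For miR-199a-5p, leaving out the members themselves, they were miR-142-3p (difference 0.27), a miRNA of blood cells, miR-7a (0.28) and miR-494 (0.29). For miR-214 they were miR-7a (0.17), miR-494 (0.18) and the epithelial miRNA miR-141 (0.19). miR-199a-3p lay within 0.02 of miR-200b, miR-429 and miR-16, the first 2 of the epithelial miR-200 family.

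Other miRNAs of stromal cells had ratios on both sides of 0. Of 6 listed for smooth muscle and stroma, 3 were measured, with a median log2 ratio of -0.73: miR-140, miR-140* and miR-143, a miRNA of smooth muscle and fibroblasts, which was at 0.82. Because miR-140 and miR-140* are arms of 1 hairpin, the 3 values are not independent. Of the listed miRNAs that were not measured, miR-152 was detected only on the tumour array, and miR-145, which shares a transcript with miR-143, and miR-218 were detected on neither array. Of 11 miRNAs linked to fibrosis that the array carries, 9 were measured, 4 at least 2-fold higher, 1 at least 2-fold lower and 4 between, with a median of 0.73, beside 12.9% higher and 22.4% lower among all 85. Without scaling 6 were at least 2-fold higher and 1 lower, beside 32.9% and 5.88%. The lower one was miR-21, known from activated fibroblasts as well as from carcinomas, at -3.26. The highest were miR-133b (2.66) and miR-133a (2.53), which also belong to the muscle list, and miR-29c (2.02), which represses collagen mRNAs. The list does not sort its miRNAs by whether they rise or fall in fibrosis, so its counts and median do not measure fibrosis. The members had a median of -1.44, beside -0.46 for all 85. Whether fewer mesenchymal cells or less of these miRNAs per cell gave a lower signal cannot be told apart in RNA of whole tissue.

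Markers of other cell types differed between the arrays along with the members. Of 7 skeletal muscle miRNAs, 5 were measured, all with ratios above 0, beside 32 of all 85. The median of the 5 was 2.53, and miR-208 and miR-499 were detected on neither array. With these miRNAs left out of the scaling, the members' log2 ratios were -1.24 for miR-199a-5p, -1.13 for miR-214 and -0.29 for miR-199a-3p. All 9 measured of 10 epithelial miRNAs were below 0 after scaling, beside 53 of all 85. Their median was -0.90, and 0.02 without scaling. The remaining listed miRNA, miR-182, was detected only on the normal array. The 10 together held 6.06% of all signal in the tumour array and 10.0% in the normal array. Their summed signal without scaling was 2808 of 46329 units in the tumour array and 2539 of 25282 in the normal array. Of 6 leukocyte miRNAs listed, 4 were measured, 3 of them at least 2-fold lower and 1 at least 2-fold higher, with a median of -1.43, beside 22.4% lower and 12.9% higher among all 85. Without scaling 1 of the 4, miR-223, was at least 2-fold lower (-1.49) and 1, miR-150, higher, beside 5.88% and 32.9% of all 85. The leukocyte list held 0.674% of all signal in the tumour array and 1.63% in the normal array. The single measured endothelial miRNA, miR-126, was at 0.68, and the single measured one of red blood cells, miR-451, at 1.04. Without scaling the medians of the lists were 3.45 for muscle, 0.19 for smooth muscle and stroma, 1.65 for the fibrosis-linked miRNAs and -0.51 for leukocytes. The part of these markers in the members' results was not tested.

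**Figure D4:**
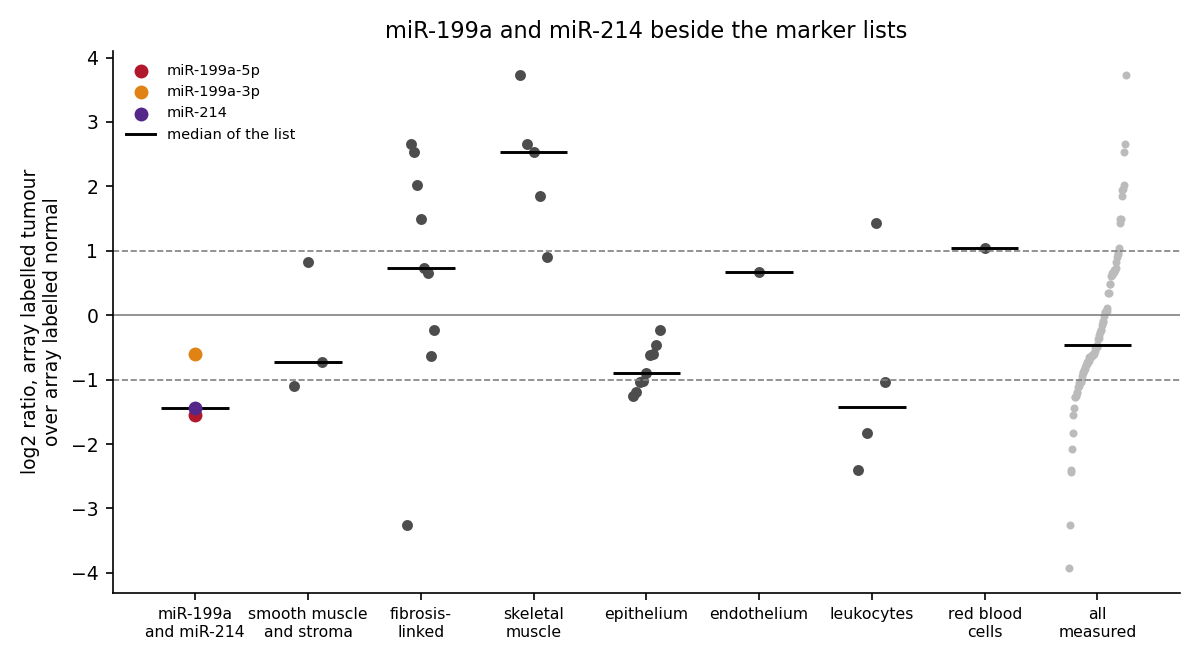
Log2 ratios, array labelled tumour over array labelled normal, of the 3 miRNAs beside the measured miRNAs of each marker list and all 85, with black bars for medians and dashed lines at 2-fold. miR-199a-5p and miR-214 lie below all measured epithelial miRNAs and all measured stromal ones, and above miR-223, miR-142-3p and miR-21.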

How the data were processed

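The members and all lists of miRNAs were chosen with earlier results of these data known. Per the file headers, Agilent Feature Extraction 10.5.1.1 made the deposited intensity values, subtracting background and detrending in space without normalizing between arrays. The deposited value table holds the software's total gene signal, with values below 1 set to 1 (208 and 201 features equal within a relative difference of 1e-05). The labels name a labelling kit meant for mRNA, and the sources used here do not say how miRNA was labelled.

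Spots marked as outliers were left out and the others averaged per probe (8 to 10 for the members). Each array was divided by the 75th percentile of its probes detected on both arrays, floored at its lowest detected signal and put on the log2 scale. Ratios of a miRNA's probes detected on both arrays were averaged in log2. The spot SE combines the spread of spots on both arrays, and the number of arrays limits the precision. Differences of 2-fold or more are calls of size. Genes are named by this rule: the members, the 3 nearest miRNAs to each, hairpins with both arms measured, and up to 4 list members with the largest absolute ratio. Names outside it (miR-98, miR-31, neighbouring pairs, list members detected on 1 array or on neither) were chosen after their values were seen. By probe sequence, 304 of 350 miRNAs matched RefSeq (GRCr8). Python 3.11.15 and limma 3.58.1 (normexp, offset 50) were used. The steps were tested on simulated data, where any common shift was removed first, so the scaling between arrays was not checked.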

Additional observations from a re-analysis of the deposited data

How the results depend on the processing

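No paired analysis was possible because each group is 1 array, and leaving out an array was not possible for the same reason. All 16 alternatives gave a value for all 3 miRNAs. The log2 ratio of miR-199a-5p stayed below 0 in all 16 and at least 2-fold lower in 14, miR-214 stayed below 0 in all 16 and at least 2-fold lower in 13, and miR-199a-3p was below 0 in 14 and 2-fold lower in 0. The 16 are not separate checks. The total gene signal and the deposited value table gave the same values, and requiring all spots well above background left all 3 values as reported. Others changed only the choice of spots or probes and kept the reported scaling. Values that moved by more than 1 spot SD are given in the order miR-199a-5p, miR-199a-3p, miR-214: -0.63, 0.32 and -0.52 without scaling, -1.07, -0.12 and -0.96 with the 75th percentile of every probe, -0.74, 0.21 and -0.63 on positive control features, -1.24, -0.29 and -1.13 without skeletal muscle miRNAs in the percentile, and -1.35, -0.39 and -1.21 with both the total gene signal and the deposited value table. Quantile normalization gave -1.70 for miR-199a-5p and -1.33 for miR-214, normexp -1.19 and -1.11, and no filter -1.24 for miR-199a-5p, because its undetected probe then enters at the floor. The arm difference was -0.65 with normexp and -0.63 with no filter. miR-214 minus miR-199a-5p was 0.37 with quantile normalization and -0.21 with no filter, and miR-214 minus miR-199a-3p was -0.69 with quantile normalization and -0.57 with normexp. Members at least 2-fold lower numbered 0 without scaling, 1 with the 75th percentile of every probe and 0 on control features. In the same 3 settings the miRNAs at least 2-fold lower numbered 5, 7 and 6 and those higher 28, 23 and 27, against 19 and 11 as reported. Without muscle miRNAs in the percentile they were 8 and 18, with normexp 8 and 3, and 18 were higher with the total gene signal and with the deposited value table. The median of all measured miRNAs moved by 0.92 without scaling, 0.48 with all probes, 0.82 on control features, 0.31 without muscle miRNAs, 0.10 with quantile normalization and 0.21 with the total gene signal. With normexp this median was -0.54, against -0.46 as reported. Relative to the median, miR-199a-5p, miR-199a-3p and miR-214 lay at -0.65, 0.00 and -0.57 with normexp. With quantile normalization they lay at -1.34, -0.27 and -0.97. With no filter, where most miRNAs sit at the floor, they lay at -0.32, 0.31 and -0.53. The shift without scaling is the factor itself, since the scaling lowers every log2 ratio by 0.92. The settings with all probes, control features and no muscle miRNAs also use 1 factor per array. They left the members' values relative to the median as reported. Apart from such factors and the undetected probe, the cause of the shifts was not tested. Signal over background limits miR-199a-5p most, since 1 of its 2 probes was not detected.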
